A study of Mus musculus with 1 sample.

Results

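A set of 10 genes of the JAK-STAT pathway was examined in ventral midbrain (VM)-derived glia, of 23282 rows in the expression table: the Janus kinases Jak1, Jak2, Jak3 and Tyk2, the transcription factors Stat3, Stat5a, Stat5b and Stat6, and the feedback inhibitors Socs1 and Socs3. The members were chosen by gene symbol, and each of the 10 symbols matched 1 row. The data were 1 RNA-seq library of primary mixed glia from the VM of outbred ICR(CD-1) mice, labelled with an age of postnatal day 5. The labels placed it in the control group, which received the vehicle DMSO in the study's methods. The number of pups behind the culture was not given in the sources used here. The study asked how an inhibitor of the kinase SGK1 changes such glia, and inhibitor-treated libraries were not analysed here. With 1 library there is no replicate check, no error between cultures and no test, so every level below describes this library.

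JAK-STAT signalling carries cytokine messages from the cell surface to the nucleus. A cytokine brings receptor chains together, the JAK kinases bound to those chains become active and phosphorylate STAT proteins, and paired STATs enter the nucleus and bind DNA. SOCS genes are among the genes that STATs switch on, and SOCS proteins block the receptor and kinase complex, which closes a feedback loop. In the brain, STAT3 is known for its part in astrocyte formation and reactivity, and STAT6 for the response of microglia and macrophages to interleukin 4. These messenger RNA levels do not measure phosphorylation, on which the activity of JAK and STAT proteins depends.

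The RefSeq promoter windows of the feedback pair Socs3 and Socs1 (250 bases before to 50 after the annotated start, GRCm38.p6) are shown first. STAT3 and STAT5 dimers bind elements of the form TTCNNNGAA, which reads the same on both strands, and capitals mark the match to it. The Socs3 window is chr11:117969317-117969616 and the Socs1 window chr16:10785487-10785786, both on the minus strand and printed 5′ to 3′ along the gene.
Socs3: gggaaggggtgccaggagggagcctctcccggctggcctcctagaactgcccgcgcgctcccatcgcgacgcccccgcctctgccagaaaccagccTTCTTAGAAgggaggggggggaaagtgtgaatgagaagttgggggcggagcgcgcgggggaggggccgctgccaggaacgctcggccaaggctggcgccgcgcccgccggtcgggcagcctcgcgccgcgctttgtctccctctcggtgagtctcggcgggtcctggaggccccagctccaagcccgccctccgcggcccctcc
Socs1: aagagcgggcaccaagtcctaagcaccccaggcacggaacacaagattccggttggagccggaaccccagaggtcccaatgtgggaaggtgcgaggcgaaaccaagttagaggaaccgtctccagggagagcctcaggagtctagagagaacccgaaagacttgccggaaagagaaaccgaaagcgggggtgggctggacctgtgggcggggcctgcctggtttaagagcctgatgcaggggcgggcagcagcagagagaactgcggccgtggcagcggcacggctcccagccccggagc
The Socs3 window held 1 match, TTCTTAGAA, from base -154 to base -146 relative to the RefSeq start (chr11:117969512-117969520). The GENCODE coding transcript of Socs3 starts 180 bases further downstream than the RefSeq start. The window ends before that GENCODE start, so the bases directly upstream of it were not searched. No match was present in the Socs1 window. Of the 10 members, 1 had a match in any of their 12 windows, and 8.3% of all 32851 windows had one. A match describes letters in the window only, and a link between the match and the level of Socs3 was not tested. The 12 windows had a median GC content of 62%, from 47.3% to 82.7%, against a median of 52.7% over all windows.

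Stat5a and Stat5b are close paralogs whose reads can be confused, so their longest identical coding stretch is also shown. It is 324 bases long. In Stat5a it spans exons 7 to 9 on the plus strand (chr11:100874023-100874133, chr11:100874339-100874490 and chr11:100874923-100874983). In Stat5b it spans exons 6 to 8 on the minus strand (chr11:100798591-100798701, chr11:100798234-100798385 and chr11:100797741-100797801). The first 263 bases, which fill the first 2 of these exon blocks in each gene, are printed. The stretch comes from the GENCODE M21 transcripts and lies in the part that encodes the coiled-coil domain.
Stat5a and Stat5b: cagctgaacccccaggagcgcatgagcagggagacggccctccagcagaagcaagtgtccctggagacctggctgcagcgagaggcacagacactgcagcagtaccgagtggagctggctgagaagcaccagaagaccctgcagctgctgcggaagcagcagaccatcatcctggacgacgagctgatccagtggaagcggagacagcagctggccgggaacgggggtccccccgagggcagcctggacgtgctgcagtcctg
The 2 coding sequences were identical at 90.8% of aligned bases. Among the other pairs of member STATs this identity was 58.9% to 65.3%, among the 4 JAKs 59.2% to 64.6%, and for Socs1 and Socs3 68.7%. Over the longer sequence of each pair, unaligned bases included, identity was 87.0% for Stat5a and Stat5b and 53.6% for Socs1 and Socs3. On that measure the other STAT pairs had 50.9% to 56.6% and the JAK pairs 53.4% to 58.0%.

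The deposited values were normalised read counts, and their sum in this library was 27569507. Genes were called detected from a value of 10 upwards, which held for 67.2% of all rows. Since longer genes collect more reads, levels of different genes were compared as the value per kilobase (kb) of annotated exon. The median of detected genes on this scale was 103 per kb, and 33.8% of the rows with a length lay above it. The labelled glial culture was checked with marker genes. All 6 astrocyte markers (604 to 17222) and all 6 microglia markers (984 to 32619) were detected, as were all 5 mesenchymal markers (455 to 26499) and all 5 markers of the oligodendrocyte lineage (48 to 16349). Of 5 neuronal markers 3 were detected, Map2 at 868, Snap25 at 86 and Rbfox3 at 20, while Syt1 was at 6 and Slc17a6 was listed at 0. Of 4 endothelial markers 3 were detected, at 33 to 119, and Tek was listed at 0. The 4 measured markers of T and NK cells had values of 2 to 10. In such a mixture, fewer cells of a type and less RNA per cell cannot be told apart, and no member can be assigned to a cell type.

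All 10 members were detected, with values from 56 to 4810, against 67.2% of all rows. From a value of 1 upwards stood 10 members and 78.2% of rows, and from 100 upwards 9 members and 51.6% of rows. On the per-kb scale 7 of them lay above the median of detected genes, against 33.8% of all rows with a length. By definition that median splits the detected genes, to which all members belong, into equal parts. The highest member was 55.6-fold above the lowest. The order per kb was Stat6, Jak1, Stat3, Socs3, Jak2, Jak3, Stat5b, Tyk2, Stat5a and Socs1. Neighbours such as Stat3 and Socs3 differed by 1.05-fold, and without replicates no neighbouring pair can be called different.

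**Figure D1:**
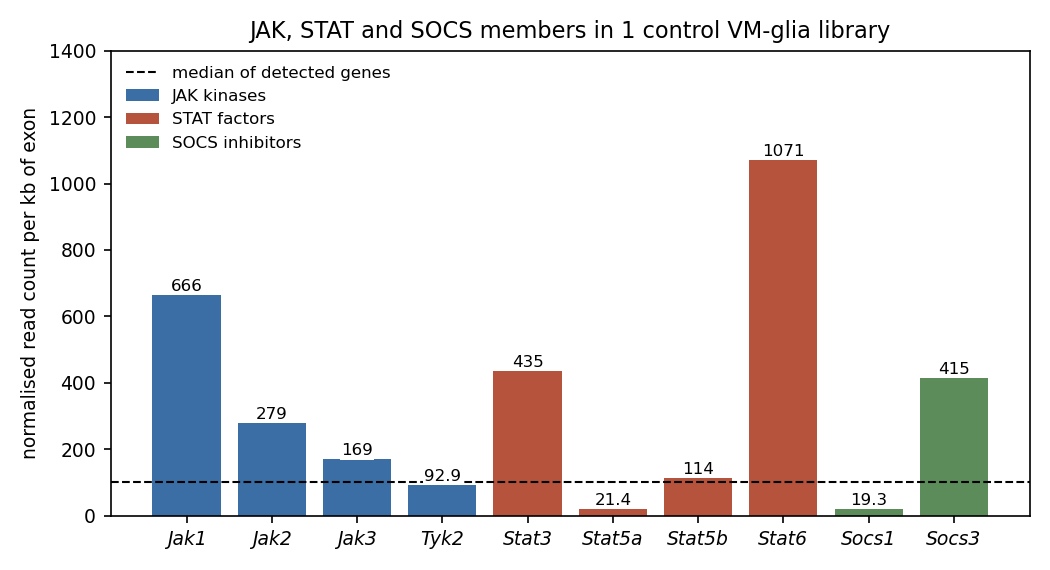
Bars show the normalised read count per kb of exon of each member in the 1 control library, coloured by family, with no error bars since there is 1 library. Stat6 stands highest at 1071 per kb, and Tyk2, Stat5a and Socs1 lie under the dashed median of detected genes at 103 per kb.

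Jak1 led the kinases. JAK1 serves the gp130, interferon and common gamma chain receptors. Its gene (chromosome 4, 101152367 to 101265282, minus strand, GRCm38) had a value of 4810, the highest undivided value of the 10. Per kb the level of Jak1 was 666, above 86.3% of detected genes and 2.39-fold that of Jak2. Jak1 made up 55.1% of the summed per-kb level of the 4 kinases.

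Jak2, which serves the receptors for GM-CSF, erythropoietin and growth hormone, was second. The gene (chromosome 19, 29251828 to 29313080, plus strand) had a value of 1403, or 279 per kb, above 72.5% of detected genes. Its exons overlapped no other annotated gene.

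Jak3 binds the common gamma chain and is best known from blood cells. Located on chromosome 8 (71676296 to 71690575, plus strand), it had a value of 907, or 169 per kb, above 61.5% of detected genes. This placed Jak3 1.82-fold above the widely expressed Tyk2 per kb of exon, or 1.42-fold without division by length. The T and NK cell markers in this library reached at most 10. The highest microglia, mesenchymal, astrocyte and oligodendrocyte lineage markers were at 32619, 26499, 17222 and 16349. Neuronal and endothelial markers reached 868 and 119. Which cell type the Jak3 reads came from was not tested. Of the Jak3 exons, 404 bases (7.55%) overlap Insl3 on the same strand, and Insl3 had a value of 12.

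Tyk2, the partner of JAK1 at the type I interferon and interleukin 10 receptors, was the lowest kinase. Its gene (chromosome 9, 21104068 to 21131243, minus strand) had a value of 638, or 92.9 per kb, above 47.8% of detected genes. On the opposite strand, the antisense gene 1700084C06Rik covers 554 bases (8.07%) of Tyk2 exons. The strand setting of the counting was not stated, so reads there could belong to either gene.

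**Figure D2:**
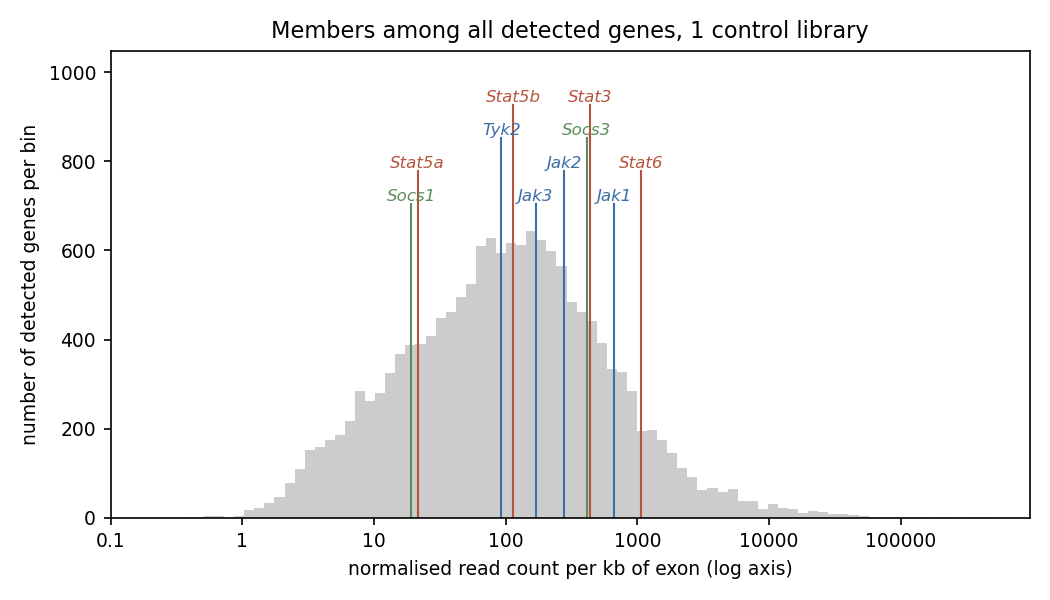
The grey histogram shows the number of detected genes by normalised read count per kb of exon (log axis), and coloured lines mark the 10 members. The members spread over the distribution, from Socs1 above 19.1% of detected genes to Stat6 above 91.4%.

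Stat6 had the highest level of all members. The gene (chromosome 10, 127642986 to 127660957, plus strand) had a value of 4714, or 1071 per kb, which is 10.4-fold the median of detected genes. It lay above 91.4% of them and was 2.46-fold above Stat3. Only 40 bases of its exons (0.909%) overlap a neighbour, Nab2 on the opposite strand.

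Stat3, the factor downstream of gp130 cytokines, had an undivided value close to that of Stat6. On chromosome 11 (100885098 to 100939540, minus strand) its value was 4146, or 435 per kb, above 80.3% of detected genes. The distance between Stat6 and Stat3 depended on the length used. All annotated Stat3 exons cover 9527 bases, while its coding sequence has 2310. Divided by coding length, Stat6 was at 1877 and Stat3 at 1795 per kb, which is 1.05-fold apart.

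Stat5b and Stat5a transmit signals of GM-CSF, growth hormone and prolactin, and they lie beside Stat3 on chromosome 11. Stat5b (100780731 to 100850724, minus strand) is separated by 8626 bases from Stat5a (100859351 to 100885169, plus strand). In the GENCODE annotation the 3′ ends of Stat5a and Stat3 overlap by 72 bases on opposite strands. Across this row of 3 genes the values were 634 for Stat5b, 153 for Stat5a and 4146 for Stat3. Per kb, Stat5b was at 114 (above 52.5% of detected genes) and Stat5a at 21.4 (above 20.7%). Stat5b was 5.34-fold above its paralog per kb, and 3.07-fold when only exons of coding transcripts were counted in the length. Of all stretches of 50 bases in the transcripts, 8.21% of those of Stat5a and 11.0% of those of Stat5b also occur in the other gene, and for stretches of 100 bases the shares were 3.44% and 4.79%. How the authors treated reads that fit both genes was not stated.

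Over the 4 member STATs, Stat6 held 65.2% of the summed per-kb level, Stat3 26.5%, Stat5b 6.97% and Stat5a 1.31%. With coding length the shares of Stat6 and Stat3 were 46.9% and 44.8%. Stat2, which acts in type I interferon signalling, had a value of 675, or 114 per kb, close to that of Stat5b. Stat4, used by interleukin 12 in T and NK cells, was listed at 0.

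Socs3 was the highest of the feedback inhibitors. SOCS3 binds gp130 and JAKs and limits signals to STAT3. The gene (chromosome 11, 117966079 to 117970047, minus strand) had a value of 1199, or 415 per kb, above 79.4% of detected genes. Socs1, a brake on interferon signalling, lies on chromosome 16 (10782240 to 10785536, minus strand) and had a value of 56, or 19.3 per kb, above 19.1%. Socs3 was thus 21.5-fold above Socs1. No exon of either gene overlaps another annotated gene, and neither shares a stretch of 50 bases with another gene's transcripts.

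The 6 other genes of the SOCS family were all detected, against 67.2% of all rows. All of them lay under the median of detected genes per kb of exon. Socs5 was at 99.3 per kb (value 637), Socs7 at 69.6 (506), Socs6 at 44.1 (501), Socs2 at 23.3 (222), Socs4 at 14.1 (97) and Cish at 9.04 (58). Socs3 was 4.18-fold above the next gene, Socs5, and held 59.8% of the family sum, or 52.5% with coding length. Socs1 held 2.78% per kb of exon. Without division by length, Socs3 was 1.88-fold above Socs5 and held 36.6% of the family sum. Cish and Socs2 are classical targets of STAT5, and per kb of exon both were low in this library. For Socs2 this depended on the length used. Divided by coding length, Socs2 was at 369 per kb, near Socs5 at 396, while Cish was at 75.2.

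**Figure D3:**
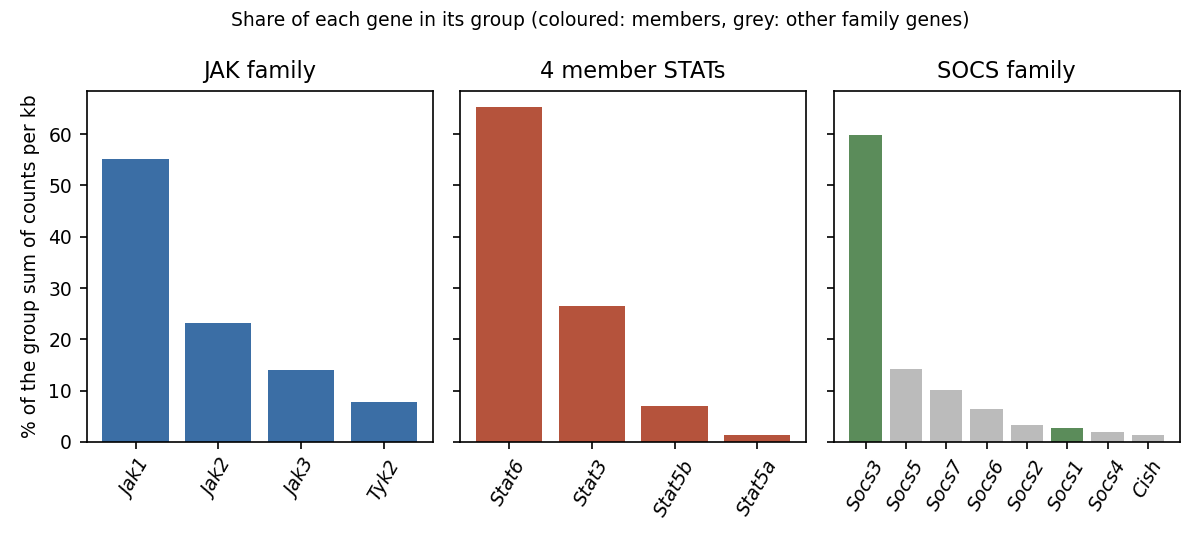
Bars give the share of each gene in the summed normalised read count per kb of exon (in %) of the JAK family, the 4 member STATs and the SOCS family, with members coloured and other family genes grey. Jak1 (55.1%), Stat6 (65.2%) and Socs3 (59.8%) each hold the largest share of their group on this scale.

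Further inhibitors act on the same complexes: phosphatases remove the phosphate from JAKs and STATs, PIAS proteins bind STATs, and the adaptor Sh2b3 restrains JAK2. All 10 of these genes were detected, against 67.2% of all rows. All 10 lay above the median of detected genes, against 33.8% of rows with a length. Their median was 353 per kb. Ptpn6, which encodes the blood cell phosphatase SHP-1, was highest at 4359 per kb (value 12215), followed by Ptpn1 at 534 and Sh2b3 at 440. Pias1 was lowest at 122 per kb.

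The receptors that feed the members were grouped by the kinase or chain they use. For JAK1 and STAT3, all 6 gp130-type receptor genes were detected, with Il11ra1 at 548 per kb, the shared chain Il6st at 158, Il6ra at 114 and Lifr lowest at 27.4. Reads of Il11ra1 may be shared with near-identical copies. All 7 ligand genes of this group were also detected, and the share over all rows was 67.2%. Cntf was at 293 per kb, Clcf1 at 215, Lif at 163 and Il6 lowest at 14. Exons of Zfp91 on the same strand cover 78.9% of the Cntf exons, so the value of Cntf is uncertain.

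For JAK3, 6 of 9 receptor genes listed with the common gamma chain were detected, close to the 67.2% of all rows. The receptor list includes Il13ra1 and the ligand list Il13, neither of which uses that chain. Il4ra, the receptor upstream of STAT6, was at 620 per kb, the chain Il2rg itself at 359 and Il21r at 258. Il2rb was lowest of those above 0, at 0.7 per kb, and Il9r was listed at 0. Another gene on the same strand overlaps 30.5% of the Il2rg exons. Of the 7 listed ligands, 3 were detected: Il21 at 27 per kb, Il15 at 23.9 and Il7 at 6.53. The count was 1 at a detection minimum of 100 and 5 at a minimum of 1. Il9 had a value of 1, and Il2 and Il4 were listed at 0.

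For JAK2, all 10 receptor genes reported here were detected, against 67.2% of all rows. The GM-CSF receptor genes led, with Csf2ra at 1390 per kb, Csf2rb at 531 and Csf2rb2 at 459. The last 2 are close paralogs whose reads may be split. Prlr was lowest at 2.48 per kb. At a detection minimum of 100 the count of receptor genes was 7, against 51.6% of all rows. None of the 7 ligand genes was detected: Csf2, Csf3, Lep, Il3 and Il5 were listed at 0, Epo had a value of 7 and Thpo of 8.

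For TYK2, 5 of 7 receptor genes were detected. Ifnar2 was at 1746 per kb, Il10rb at 969, Ifnar1 at 725 and Il12rb1 lowest at 0.731. Exons of Ifnar2 and Il10rb overlap a further annotated gene on the same strand. None of the 5 ligand genes was detected, with Ifnb1 at a value of 6, Il23a at 8, Il12b at 5, and Il10 and Il12a at 0. Ifngr2 and Ifngr1, the receptor of interferon gamma that uses JAK1 and JAK2, were at 1182 and 924 per kb. Altogether 29 of 34 receptor genes and 10 of 26 ligand genes were detected, against 67.2% of all rows.

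**Figure D4:**
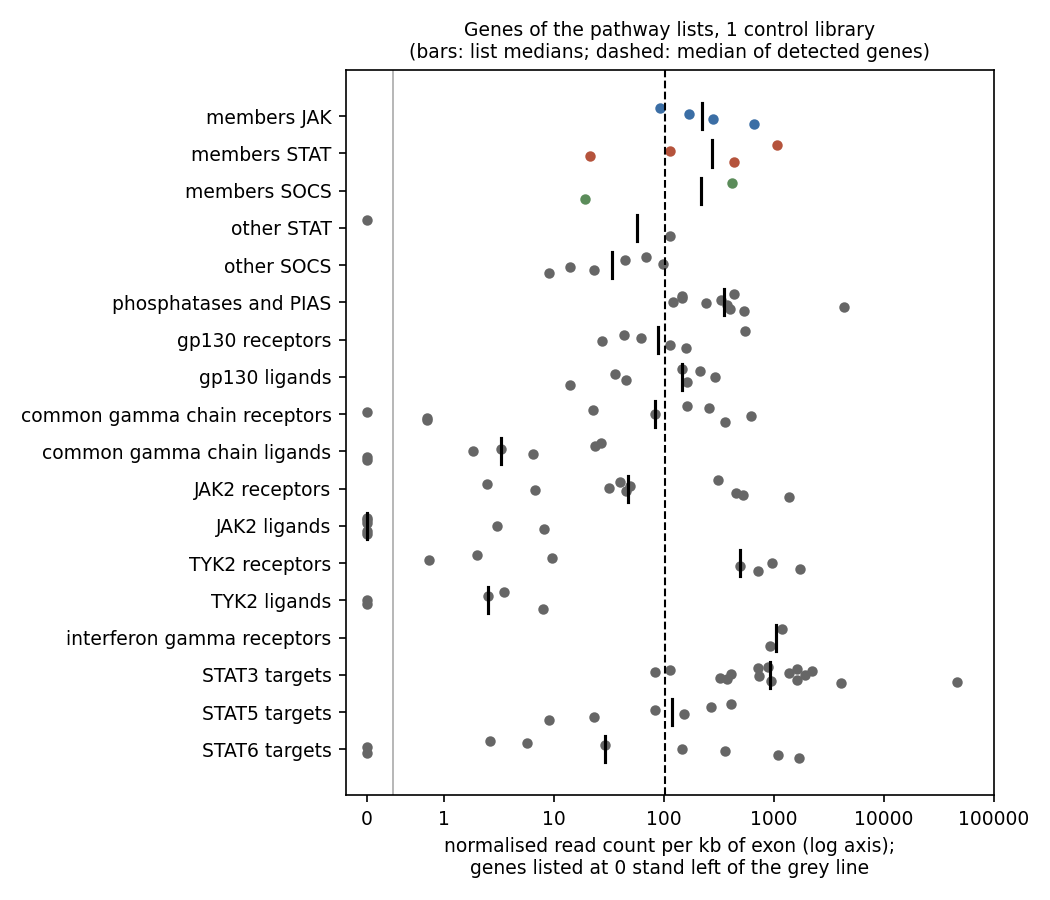
Each point is a gene of a pathway list at its normalised read count per kb of exon (log axis, genes listed at 0 left of the grey line), black bars are list medians and the dashed line is the median of detected genes. Ligand lists other than gp130 ligands lie to the left, with list medians of 0 to 3.32 per kb, while the gp130 ligands have a median of 148.

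Known targets of the member STATs were described last, with the reservation that other factors also control them. Over all rows, 67.2% were detected, and 33.8% of those with a length lay above the median of detected genes. The target lists were chosen with earlier results of these data known. Whether STAT activity sets these levels was not tested. All 16 STAT3 targets were detected and 15 lay above the median of detected genes, with a list median of 921 per kb. The intermediate filament genes Vim and Gfap were at 46132 and 4083 per kb, Timp1 was at 2251 and the kinase gene Pim1 lowest at 83. Of 6 STAT5 targets, all were detected and 3 lay above the median: Bcl2l1 at 406, Ccnd2 at 267 and Bcl6 at 154 per kb. The STAT5 list shares Bcl2l1 and Pim1 with the STAT3 list, and Cish and Socs2 with the SOCS family. Cish was lowest, as given above. Of 9 STAT6 targets 7 were detected, or 3 at a detection minimum of 100, and 4 lay above the median. Arg1 was at 1693 per kb, Mrc1 at 1101 and Chil3 at 363, while Irf4 was at 2.65 and Retnla and Ccl22 were listed at 0. The list median of STAT6 targets was 29.1 per kb.

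The dependence of the member levels on the gene length was followed with 3 other lengths. Stat6 ranked first under each of the 4 lengths. Jak1 ranked second except with coding length, where Stat3 and then Socs3 came before it, since the coding sequences of Stat3 and Socs3 make up a small part of their exons. Socs1 was lowest except with coding length, where Stat5a was lowest at 64 per kb and Socs1 was at 88.1.

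**Figure D5:**
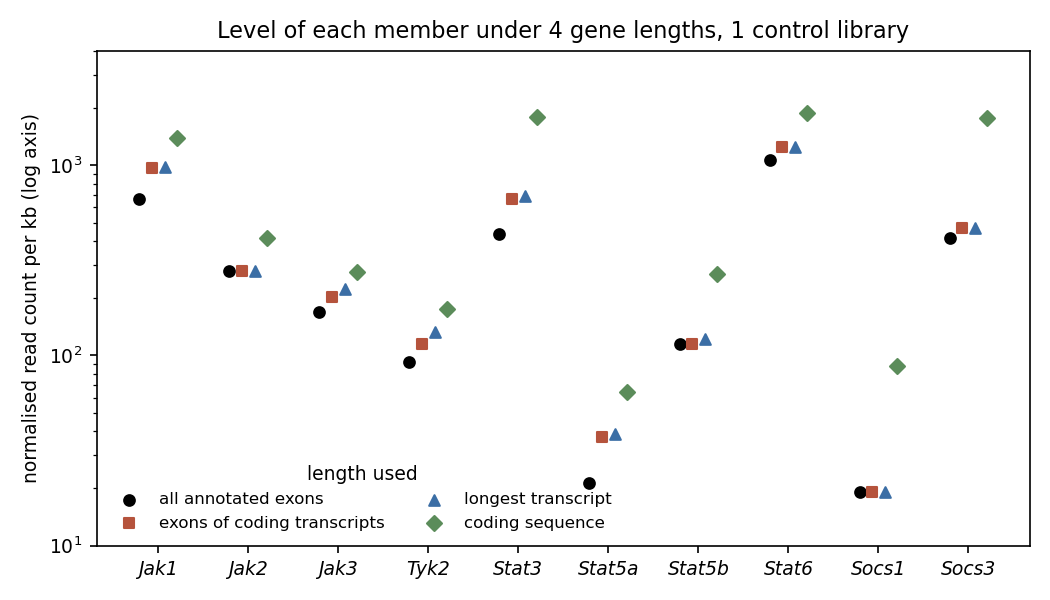
Points show the normalised read count per kb (log axis) of each member when its value is divided by all annotated exons, the exons of coding transcripts, the longest transcript or the coding sequence. Stat6 is highest under each length, and Stat3 comes close to it with coding length (1795 against 1877 per kb).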

How the data were processed

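Total RNA of 1 control culture of VM-derived glia was sequenced after SMARTer library preparation. According to the study's methods, reads were quality-trimmed, mapped to GRCm38/mm10 with STAR and counted on RefSeq exons with HTSeq-count, whereas the submitters' processing notes name TopHat and edgeR. The authors deposited 1 whole-number value per gene, which they call a normalised read count. The normalisation was not stated, so the deposited values were handled as a score and no count model was used. The depth is unknown, and no counting interval or detection floor is given.

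Of 23282 rows, 98.3% were matched by symbol or synonym to GENCODE M21 (GRCm38), which is not the annotation the authors counted on. Values were divided by the kb of all annotated exons. Percentages of genes below a member refer to 15479 detected genes with a length. All 10 members were named, together with other STAT and SOCS genes, and for each further list the 3 highest genes, the lowest above 0 and those at 0. Some genes of the lists are not reported here and were left out of the counts. Members and lists were chosen with earlier results of these data known. With 1 library no group comparison was made and no likeness of patterns across samples could be measured. Alternatives were other gene lengths and detection minimums of 1, 3 and 100. Computations were tested on simulated data and used Python 3.11.15, pandas 2.3.3, numpy 2.4.6 and biopython 1.88.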

Additional observations from a re-analysis of the deposited data

How the results depend on the processing

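The count of detected members was 10 at minimums of 1 and 3 and 9 at 100, where Socs1 fell out. The count of members above the median of detected genes ran from 5 with coding length to 8 at minimums of 1 or 3 or without division by length, against 7 as reported. The log2 ratios below kept their sign under every alternative run. In the order of longest transcript, coding sequence, no division by length, and exons of coding transcripts only (chosen after seeing the data), the log2 ratio of Jak1 to Jak2 was 1.81, 1.75, 1.78 and 1.80, against 1.25 as reported. That of Stat3 to Stat6 was -0.86, -0.065, -0.19 and -0.91, against -1.30. That of Stat5b to Stat5a was 1.65, 2.07, 2.05 and 1.62, against 2.42. That of Socs3 to Socs1 was 4.61, 4.33, 4.42 and 4.61, against 4.43. These shifts follow from the lengths alone, since the values are the same. Of the other pathway genes, 81 were detected as reported, 67 with a minimum of 100 and 92 with 1 (added after seeing the data). Over all rows, the shares detected at the same minimums were 67.2%, 51.6% and 78.2%. The counts of pathway genes thus fell and rose together with the general share. Whether pathway genes were detected more often than other genes was not tested. No paired analysis was possible because there was 1 library. The lack of a replicate and the unknown depth limit each value to this library.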

Other observations

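Transcripts of Il21, a cytokine best known from T cells, had a value of 142 in this culture, and its receptor gene Il21r had 859. The T and NK cell markers Cd3e and Cd3g were each at 2, Ncr1 was at 4 and Klrb1c at 10. Per kb of exon, Il21 was at 27, above 24.0% of detected genes. An antisense gene overlaps 8.92% of the Il21 exons. Whether those reads belong to Il21 was not tested. Il21 was the highest per kb of the 7 ligands listed with the common gamma chain, and it was singled out after its value was seen.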
